A study of Mus musculus with 4 samples.

Results

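The genes described here are 9 that handle vitamin A in tissue: Rbp4, Stra6, Lrat, Rdh10, Dhrs3, Aldh1a1, Aldh1a2, Cyp26b1 and Rarb. They were taken from the deposited table by name, and all 9 were found among its 21931 genes. The set was selected on earlier results from these same 4 libraries, in which Lrat and Cyp26b1 stood higher in the knockout lungs, so the members' differences between genotypes are given as a description. Calls of members are counted once near the end, without being read as support. The libraries were made from fresh lung tissue of C57BL6 mice aged 2 months with no further treatment. By genotype label, 1 library was wild type, 2 were Dnah9 knockout and 1 was Hez, a word kept as written because no label explains it. Dnah9 encodes a motor protein of motile cilia. The design of its knockout allele was not given in the sources used here.

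Retinol travels in blood bound to a carrier, enters cells, and is either esterified for storage or oxidised, first to retinal and then to retinoic acid. Retinoic acid binds nuclear receptors that sit on short repeated DNA elements and regulate transcription, and it is removed by enzymes of the Cyp26 family. The lung stores retinyl esters, and retinoic acid takes part in alveolar formation and in the upkeep of airway epithelium. Several genes of the pathway are themselves known targets of retinoic acid in other settings.

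Depth was similar, with 15860478 to 16553480 reads counted to genes per library. Dnah9 itself had 917 reads in wild type, 420 in Hez, and 240 and 254 in knockout libraries 1 and 2 (100%, 44.6%, 25.7% and 28.1% of the wild-type FPKM). Its transcript was thus lower but still read in the libraries labelled knockout, and Hez lay between. The tissue label was checked against markers: Sftpc, the surfactant protein of alveolar type 2 cells, stood between 11836 and 13351 FPKM, and 5 hepatocyte markers summed to 2.70 to 3.17 FPKM. FPKM is the read count scaled by gene length and by the library total, which allows levels of different genes to be compared. With 1 library each for wild type and Hez, tests against either take their spread from the knockout pair, with help from the other genes. They assume that single libraries vary as that pair does. Nothing in the labels says whether litters or batches were shared, so that spread may be technical. A fit that joins wild type and Hez also counts the difference between them as spread.

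The receptor gene Rarb carries the textbook retinoic acid response element, and its start region is shown first because it is the one member whose window holds one. Windows of 250 bases before to 50 bases after each start site came from RefSeq (build GRCm38.p6, while the deposited table uses GRCm39), and 8 of the 9 members had at least 1 window, 15 in all. Rdh10 had none. The half-site searched was AGGTCA, with its variant forms AGTTCA, then GGGTCA, and also GGTTCA, in direct repeat with 5 bases between them (DR5) or 2 bases (DR2), on both strands and without mismatch. A DR5 was found in Rarb alone among the 8 members, and a DR2 in 0 of them. Over all 32851 windows of the same length, 0.0974% held a DR5, 0.268% a DR2 and 43.7% at least 1 half-site, which every DR5 or DR2 contains. RefSeq places Rarb on the minus strand of GRCm38.p6, while the deposited GRCm39 table gives plus. The element lies on the gene's own strand, from 53 to 37 bases before the start site (chr14:16575513-16575529, minus strand of GRCm38.p6), with the half-sites in capitals:
Rarb DR5: GGTTCAccgaaAGTTCA

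The 250 bases before the start sites of Rarb, Lrat and Cyp26b1 are printed to set the receptor gene beside the 2 members with the highest fitted differences between knockout and wild type. The Rarb stretch (chr14:16575477-16575726, minus strand) shows the element in capitals and leaves 1 further half-site, upstream of it, in lower case. The Lrat stretch (chr3:82903975-82904224, minus strand) and the Cyp26b1 stretch (chr6:84593811-84594060, minus strand) held 0 half-sites, so no letter is in capitals. These matches describe letters in a short window only, and elements farther from the start were not searched.
Rarb: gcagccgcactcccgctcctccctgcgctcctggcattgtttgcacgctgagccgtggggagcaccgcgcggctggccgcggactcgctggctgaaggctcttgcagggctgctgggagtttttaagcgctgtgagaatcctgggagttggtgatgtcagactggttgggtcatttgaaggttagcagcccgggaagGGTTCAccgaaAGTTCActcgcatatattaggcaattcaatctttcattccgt
Lrat: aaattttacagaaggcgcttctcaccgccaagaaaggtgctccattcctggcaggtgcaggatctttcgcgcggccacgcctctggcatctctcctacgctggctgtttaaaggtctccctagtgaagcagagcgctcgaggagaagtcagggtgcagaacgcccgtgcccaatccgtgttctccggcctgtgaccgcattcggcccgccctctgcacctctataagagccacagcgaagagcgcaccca
Cyp26b1: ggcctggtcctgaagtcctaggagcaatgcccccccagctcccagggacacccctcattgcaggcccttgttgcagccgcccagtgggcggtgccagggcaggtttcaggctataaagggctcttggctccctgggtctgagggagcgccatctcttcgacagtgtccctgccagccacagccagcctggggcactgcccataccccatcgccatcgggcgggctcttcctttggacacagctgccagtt

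By level, the members spanned a wide range, and the order was led by the retinal dehydrogenase Aldh1a1 at a mean of 252 FPKM over the 4 libraries, higher than 99.6% of all genes in the table. Dhrs3 followed at 47.2 FPKM, then Lrat at 16.8, Rbp4 at 12.8, Aldh1a2 at 7.32, Rdh10 at 6.86, Cyp26b1 at 4.72, Rarb at 0.595 and Stra6 at 0.0584. Of the neighbours in this order, Lrat and Rbp4, Aldh1a2 and Rdh10, and Rdh10 and Cyp26b1 had overlapping ranges over the libraries. The other neighbours did not overlap. In bulk tissue, fewer cells of a type and less RNA per cell cannot be told apart.

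**Figure D1:**
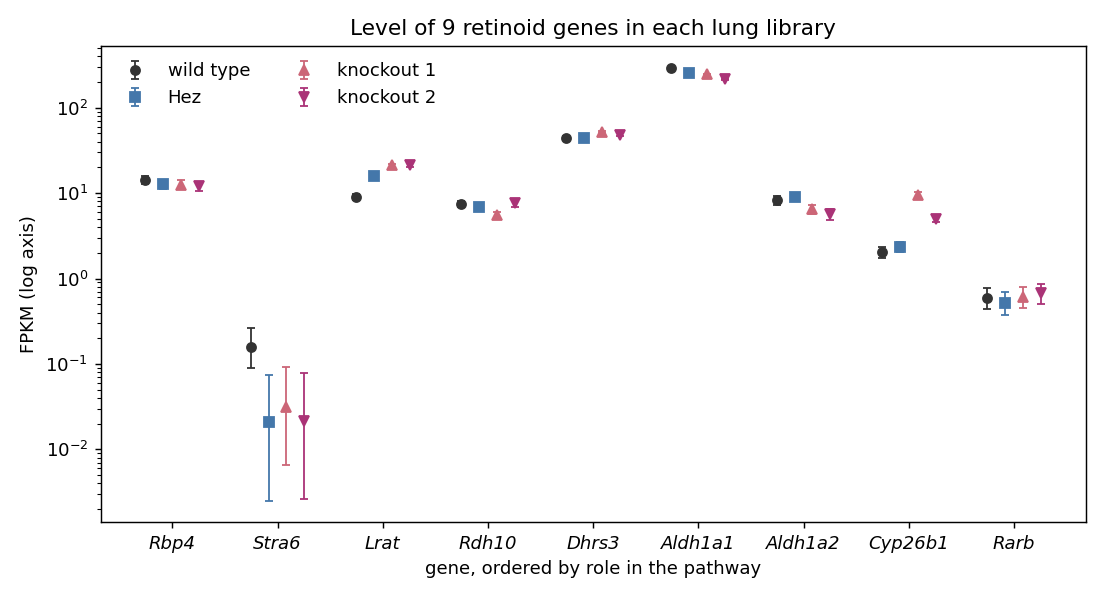
FPKM of the 9 members (log axis) in the wild-type, Hez and 2 knockout libraries, 1 point per library, with 95% exact Poisson intervals that cover counting error only. Lrat and Cyp26b1 show the knockout points above wild type and Hez, and Stra6 rests on 2 to 15 reads per library.

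The pathway begins with the carrier Rbp4, which brings retinol from liver and fat through the blood, and the membrane receptor Stra6, which takes it from that carrier. Rbp4 (ENSMUSG00000024990, chromosome 19, 38105077 to 38113729, minus strand, GRCm39 as for all genes below) stood at 14.2 FPKM in wild type, 12.7 in Hez, and 12.5 and 12.0 in the knockout libraries. Both knockout values lay below the other 2, but all counting intervals overlapped. The fitted log2 difference from wild type was -0.20 (SE 0.179). Fitted differences of adipocyte markers were negative in 7 of 7 genes, both against wild type and against Hez. For Cidec and Pck1, though, knockout 1 lay above both wild type and Hez (Cidec at 9.23 FPKM in wild type, 8.92 in Hez, and 9.34 and 7.20 in the knockouts). The list summed to 94.6 FPKM in wild type, 92.6 in Hez, and 53.2 and 43.9 in the knockouts. Cfd made up the largest part of that sum, at 69.9, 66.3, 34.8 and 30.5 FPKM in the same order. The fitted log2 difference of Rbp4 between knockout and Hez was -0.05 (SE 0.181). The part of fat cells in the Rbp4 values was not tested.

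Stra6 (ENSMUSG00000032327, chromosome 9, 57971071 to 58061279, plus strand) had 15 reads in wild type, 2 in Hez, and 3 and 2 in the knockout libraries. The wild-type library alone was high. Over both knockouts the ratio to wild type was 0.167, with an exact 95% interval for counting error of 0.0473 to 0.482. Stra6 passed the filter on low counts only through its wild-type reads, and in the fit with wild type and Hez joined it was not tested. The gene overlaps Ccdc33, which lies on the opposite strand and had 187, 89, 97 and 107 reads in wild type, Hez and knockouts 1 and 2. Whether counting used the strand is unknown, reads of the overlapping pair may be mixed, and the part of Ccdc33 was not tested.

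Storage is the step of Lrat, the enzyme that joins a fatty acid to retinol to make retinyl ester. Lrat (ENSMUSG00000028003, chromosome 3, 82799886 to 82811280, minus strand) had 777 reads in wild type, 1395 in Hez, and 1850 and 1819 in the knockouts, or 9.02, 15.7, 21.1 and 21.4 FPKM. The knockout pair lay close together, at 21.3 ± 0.233 FPKM (SD, n = 2), and above both other libraries, and Hez lay between. The 95% counting intervals were 8.39 to 9.67 FPKM in wild type and 14.9 to 16.6 in Hez, against 20.2 to 22.1 and 20.5 to 22.4 in the knockouts. As a share of the wild-type level, Hez reached 175%, knockout 1 reached 234% and knockout 2 reached 238%.

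The spread between the Lrat knockout values was small even among all genes, as 96.1% of tested genes differed more between these 2 libraries. Fitted log2 differences were 1.25 (SE 0.105) against wild type, 0.43 (SE 0.1) against Hez and 0.78 (SE 0.215) against both joined. These 3 values share the knockout libraries and are not separate evidence. The Hez library by itself was 0.81 above wild type on the log2 CPM scale, and 1.58% of tested genes lay further above wild type in Hez. Wild type was thus the low library, and 0.923% of tested genes had a higher fitted difference between knockout and wild type.

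The genes whose pattern over the 4 libraries was nearest to that of Lrat were Zfp36, Junb, Hivep3, Sdf2l1 and Dusp1. The measure was the root mean square difference of centred log2 CPM, over 10608 other genes at a mean of 10 CPM or more. It was 0.142 for Zfp36, 0.193 for Junb, 0.254 for Hivep3, 0.255 for Sdf2l1 and 0.263 for Dusp1. Zfp36, which encodes a protein that destabilises messenger RNAs, stood at 43.0 FPKM in wild type, 66.6 in Hez, and 79.5 and 80.3 in the knockouts. Zfp36, Junb and Dusp1 are known as immediate early genes, which also respond to tissue handling. Dusp1 stood at 49.0, 79.0, 72.8 and 112.7 FPKM in the same order, so there the knockouts did not both lie above Hez. Handling was not recorded in the labels, and its part in the Lrat values was not tested.

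The first oxidation is reversible: Rdh10 turns retinol into retinal, and Dhrs3 turns retinal back. Rdh10 (ENSMUSG00000025921, chromosome 1, 16175998 to 16203958, plus strand) stood at 7.46 FPKM in wild type, 6.90 in Hez, and 5.50 and 7.59 in knockouts 1 and 2. The knockout libraries lay on both sides of wild type and Hez. The fitted difference from wild type was -0.18 (SE 0.199), and it was 0.03 on the log2 CPM scale without knockout 1. Dhrs3 (ENSMUSG00000066026, chromosome 4, 144619397 to 144654779, plus strand) stood at 44.4 FPKM in wild type, 44.2 in Hez, and 52.0 and 48.2 in the knockouts. Wild type and Hez were nearly equal and both knockouts lay above them, by 0.19 against wild type (SE 0.108) and 0.18 against Hez (SE 0.108). The counting interval of knockout 2 (46.2 to 50.2 FPKM) overlapped that of wild type (42.6 to 46.4), and that of knockout 1 (49.9 to 54.1) did not. Dhrs3 exceeded Rdh10 by 5.96 times in wild type, 6.40 in Hez, and 9.44 and 6.35 in the knockouts, so knockout 1 alone stood apart in this ratio.

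The second oxidation, from retinal to retinoic acid, is irreversible and is carried out by Aldh1a1 and Aldh1a2. Aldh1a1 (ENSMUSG00000053279, chromosome 19, 20470079 to 20620829, plus strand) stood at 291 FPKM in wild type, 254 in Hez, and 248 and 216 in the knockouts. Both knockouts lay below the other 2 libraries, with no overlap of the counting intervals except between Hez and knockout 1 (250.3 to 257 against 244 to 251). The fitted difference was -0.32 against wild type (SE 0.0926) and -0.13 against Hez (SE 0.0933). Its close relative Aldh1a7 stood at 78.4, 70.9, 69.4 and 75.4 FPKM in the same order, and reads of such similar copies may be shared between them. Club cell markers were lower too, in 7 of 7 genes against wild type but 3 of 7 against Hez, with summed levels of 40221 FPKM in wild type, 31551 in Hez, and 34071 and 28725 in the knockouts. Their part in the Aldh1a1 values was not tested.

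Aldh1a2 (ENSMUSG00000013584, chromosome 9, 71123071 to 71203525, plus strand) is the retinal dehydrogenase typical of mesothelium. It stood at 8.20 FPKM in wild type, 8.97 in Hez, and 6.44 and 5.65 in the knockouts. Hez was the highest library and both knockouts lay below wild type and Hez. The counting interval of knockout 1 (5.65 to 7.31 FPKM) just met that of wild type (7.30 to 9.18), and that of knockout 2 (4.90 to 6.49) did not. The fitted difference was -0.43 against wild type (SE 0.191) and -0.57 against Hez (SE 0.189). Of 8 mesothelial markers, 4 had this same order of libraries and 4 another, among them Krt19, highest in wild type. Msln, mesothelin, stood at 12.0 FPKM in wild type, 15.6 in Hez, and 10.5 and 6.32 in the knockouts, and Upk3b at 10.6, 15.4, 9.87 and 4.55. All 8 of 8 mesothelial markers were lower against wild type and 7 of 8 against Hez. The list summed to 141 FPKM in wild type, 132 in Hez, and 126 and 103 in the knockouts. Krt19 made up the largest part of that sum, at 89.0, 60.1, 76.2 and 70.3 FPKM in the same order. Whether the Aldh1a2 values follow the amount of mesothelium was not tested.

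Breakdown of retinoic acid is the task of Cyp26b1, which showed the widest spread of the members above 1 FPKM. Cyp26b1 (ENSMUSG00000063415, chromosome 6, 84548396 to 84570890, minus strand) had 174 reads in wild type, 209 in Hez, and 834 and 424 in knockouts 1 and 2, or 2.02, 2.36, 9.51 and 4.99 FPKM. Wild type and Hez had overlapping counting intervals (1.73 to 2.34 and 2.05 to 2.70 FPKM). Both knockouts lay above them (8.88 to 10.2 and 4.53 to 5.49) and apart from each other. Relative to wild type, the level was 117% in Hez, 471% in knockout 1 and 247% in knockout 2.

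The Cyp26b1 mean in the knockouts was 7.25 ± 3.19 FPKM (SD, n = 2), and only 4.42% of tested genes differed more between the 2 knockout libraries. Fitted log2 differences were 1.86 (SE 0.368) against wild type, 1.62 (SE 0.36) against Hez and 1.73 (SE 0.286) against both joined. A higher difference from wild type was fitted for 0.425% of tested genes. The other genes of the family were scarcely read, Cyp26a1 with 1 read in every library and Cyp26c1 with 0 reads in all 4. The ratio of Cyp26b1 to Aldh1a2, a remover and a maker of retinoic acid, was 0.246 in wild type, 0.263 in Hez, and 1.48 and 0.884 in the knockouts. Relative to Aldh1a1, the far more abundant maker, it was 0.00693, 0.00930, 0.0384 and 0.0231 in the same order. Neither ratio measures enzyme activity. The gene nearest to Cyp26b1 in pattern was Lrat, at a root mean square difference of 0.566, followed by Mvd (0.585), Spon2 (0.588), Ms4a6c (0.610) and Slfn1 (0.613). These distances were all larger than those of the 5 genes nearest to Lrat, so no gene at 10 CPM or more matched the Cyp26b1 pattern as closely. Lrat and Cyp26b1 were both selected for standing higher in these same knockout libraries, so their nearness is not separate evidence of a link.

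Rarb, a nuclear receptor of retinoic acid whose start region holds the DR5 printed above, was read thinly. Rarb (ENSMUSG00000017491, chromosome 14, 5650540 to 6038924, plus strand) had 50 reads in wild type, 45 in Hez, and 52 and 56 in the knockouts, or 0.590, 0.516, 0.603 and 0.671 FPKM. Both knockouts lay above the other 2 libraries, but all counting intervals overlapped (0.438 to 0.777 FPKM in wild type, 0.507 to 0.871 in knockout 2). The fitted difference from wild type was 0.12 (SE 0.406). Rarb overlaps Top2b on the opposite strand, which had 3314 to 3633 reads, and the same limit on strand applies.

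**Figure D2:**
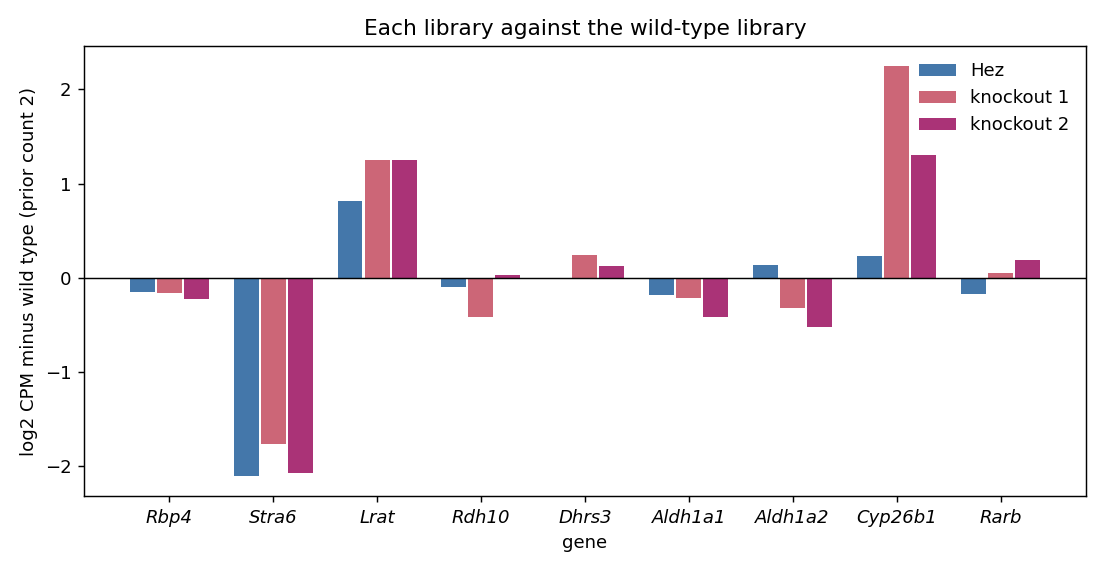
Difference of log2 CPM (prior count 2) between the wild-type library and the Hez, knockout 1 and knockout 2 libraries, 1 bar per library and gene, with no error bars since each bar is 1 library. Lrat is higher in Hez (0.81) and in both knockouts, and Cyp26b1 in the knockouts (2.24 and 1.30) more than in Hez (0.23).

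Read together, the knockout libraries lay above both wild type and Hez for 4 of 9 members (Lrat, Cyp26b1, Dhrs3 and Rarb) and below both for 3 (Rbp4, Aldh1a1 and Aldh1a2). Among all tested genes, 16.2% had both knockouts above and 17.4% below both. The edgeR quasi-likelihood test against wild type called 1 of 9 members, Lrat, at a Benjamini-Hochberg adjusted p below 0.05. Of all 15055 genes tested, 0.0531% were called. An unadjusted p below 0.05 was found for 4 of the 9 members and for 5.18% of all genes. Against Hez 0 of 9 were called (0.00664% of all genes), and 0 by DESeq2 or limma. In that edgeR test 3 had an unadjusted p below 0.05, beside 4.61% of all genes. Against wild type and Hez joined, 0 of the 8 members tested were called (0.0136% of 14674 genes), and 0 by DESeq2 or limma. DESeq2 gave no adjusted p there for Rbp4, Stra6, Aldh1a2 and Rarb. In the edgeR test 5 had an unadjusted p below 0.05, beside 5.05% of all genes. All 9 members passed the count filter in the first 2 comparisons. As the members were chosen from these contrasts, nothing is read from their shares. The single call against wild type was absent with limma on log2 FPKM values. The comparison with both joined called Cyp26b1 without knockout 1 (log2 1.19) and without knockout 2 (2.13), and Lrat without Hez (1.25). Those fits called 107 of 14971 genes (0.715%), 24 of 14988 (0.16%) and 8 of 14964 (0.0535%), more than the 2 of 14674 with all libraries.

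Other genes of the pathway gave no calls. Of 63 other genes in 7 lists, all 63 were in the table and 49 passed the count filter. None of the 49 was called against wild type (edgeR, smallest adjusted p = 0.769, for Adh7), 3 had an unadjusted p below 0.05, and DESeq2 and limma called 0. That is 6.12% at an unadjusted p below 0.05, against 5.18% of all genes. DESeq2 gave an adjusted p for 9785 genes here and 8782 against both joined, and limma tested 12611 in each comparison. Genes of the 49 with few reads lay outside these. In direction 23 were higher and 26 lower, with a median log2 difference of -0.01, beside 0.00 for all genes. Against Hez 0 of 49 were called (smallest edgeR adjusted p = 0.998, 0 with DESeq2 or limma). There 3 had an unadjusted p below 0.05, or 6.12%, beside 4.61% of all genes. Against both joined 0 of 48 were called (smallest edgeR adjusted p = 0.713, 0 with DESeq2 or limma). Here 4 had an unadjusted p below 0.05, or 8.33%, beside 5.05% of all genes.

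Among carriers, 4 of 6 tested genes were higher against wild type, with a median of 0.36 and 0 called, and 3 of 6 against Hez (median -0.03, 0 called). Lrp2, the endocytic receptor megalin, stood at 7.38 FPKM in wild type, 7.58 in Hez, and 11.7 and 8.80 in knockouts 1 and 2 (log2 0.49, SE 0.167, edgeR adjusted p = 0.799). Knockout 1 was its high library, as for Cyp26b1. Crabp1, a carrier of retinoic acid, had 10 to 25 reads per library.

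Genes of esterification and ester hydrolysis were lower in 5 of 5 tested members against wild type, with a median of -0.17 and 0 called, and in 3 of 5 against Hez (median -0.16, 0 called). Dgat1, which can also esterify retinol, stood at 9.16 FPKM in wild type, 7.87 in Hez, and 10.2 and 7.37 in the knockouts. Lpl, lipoprotein lipase, stood at 23.7, 22.0, 20.1 and 18.3 FPKM (log2 -0.29, SE 0.104, edgeR adjusted p = 0.819), and Ces1d, a carboxylesterase, at 269.5, 279, 245 and 229.6. Of these Lpl and Ces1d had both knockouts below both other libraries.

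Dehydrogenases and reductases of retinol and retinal were lower in 9 of 13 tested members against wild type (median -0.12, 0 called). Against Hez 8 of the 13 were higher and 5 lower (median 0.08, 0 called), so the direction depended on the reference. Adh7, an alcohol dehydrogenase of epithelia, stood at 6.05 FPKM in wild type, 3.40 in Hez, and 3.09 and 4.36 in the knockouts (log2 -0.69, SE 0.229). Wild type was its high library, and Hez lay between the knockouts. Adh1 ranged from 26.5 to 32.9 FPKM, Akr1b8 from 12.7 to 15.3, Rdh14 from 11.2 to 13.5 and Rdh13 from 2.05 to 2.92. The list of other retinal dehydrogenases had 2 of 2 tested genes lower against wild type (median -0.16) and 2 of 2 higher against Hez (0.24), with 0 called in either. Besides Aldh1a7, Aldh1a3 had 27 to 42 reads per library, and the untested Aldh8a1 at most 1.

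Of receptors and cofactors, 9 of 11 tested genes were higher and 2 lower, with a median log2 difference of 0.05 against wild type and 0 called. Against Hez 4 were higher and 7 lower (median -0.01, 0 called). Rarg had 1527 reads in wild type, 1626 in Hez, and 1396 and 1743 in the knockouts, and Rxra, the partner receptor, lay between 16.3 and 16.8 FPKM. Ncor1, a corepressor, lay between 18.8 and 20.8 FPKM, Rxrb between 12.2 and 13.3, and Nrip1 between 4.03 and 4.79. Genes known to respond to retinoic acid were higher in 6 and lower in 6 of 12 tested members against wild type (median 0.02, 0 called) and likewise 6 and 6 against Hez (0.01, 0 called). Tgm2, transglutaminase 2, stood at 59.4 FPKM in wild type, 63.1 in Hez, and 66.7 and 57.6 in the knockouts, so the knockouts lay on both sides. Hoxa5 did so as well, at 22.1, 21.4, 15.2 and 25.0 FPKM, and Rarres2 lay between 12.0 and 13.0. Meis2 had 427, 504, 497 and 573 reads (log2 0.34, SE 0.162, edgeR adjusted p = 0.996).

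**Figure D3:**
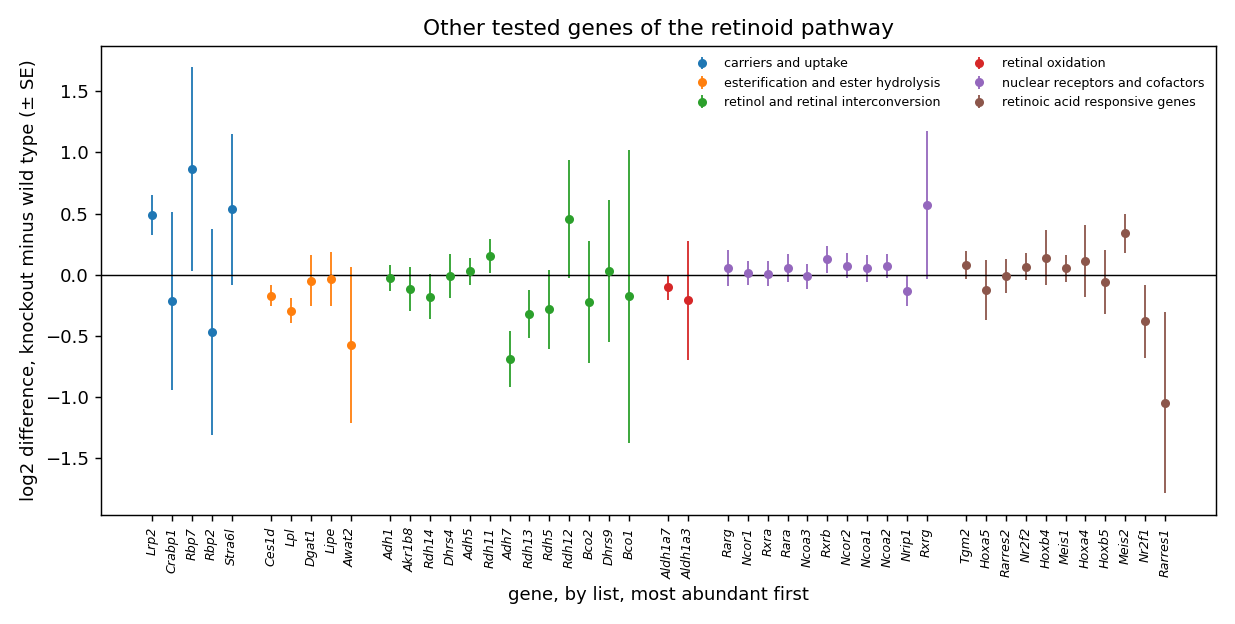
Log2 difference between knockout and wild type for 47 of the 49 other tested genes of the pathway, with standard errors from the edgeR fit (2 knockout libraries against 1), grouped by list and ordered from the most to the least abundant. Differences run from -1.04 to 0.86, the widest error bars belong to genes with few reads, and none of the 47 passed the threshold.

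Marker levels of the cells that could hold these transcripts differed between the libraries, and 0 of the listed markers were at 0 in every library. Alveolar fibroblast markers, which include the lipid-storing cells of the alveolar wall, were higher against wild type in 5 of 7 genes and against Hez in 2 of 7, with summed levels of 1197 FPKM in wild type, 1534 in Hez, and 1401 and 1256 in the knockouts. Inmt made up the largest part of that sum, at 866.8, 1157, 1062 and 915.6 FPKM in the same order. Plin2, a lipid droplet protein, stood at 33.1 FPKM in wild type, 32.5 in Hez, and 43.3 and 36.7 in the knockouts. Adventitial fibroblast markers were lower against wild type and higher against Hez, in 6 of 6 genes each, and summed to 114 FPKM in wild type, 76.2 in Hez, and 85.2 and 84.9 in the knockouts. Alveolar macrophage markers summed to 443 FPKM in wild type, 433 in Hez, and 573 and 787 in the knockouts. Endothelial markers summed to 867, 968, 957 and 969.6 FPKM, so that wild type was low and the other 3 libraries were alike. Their part in the values of Lrat and Cyp26b1 was not tested.

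**Figure D4:**
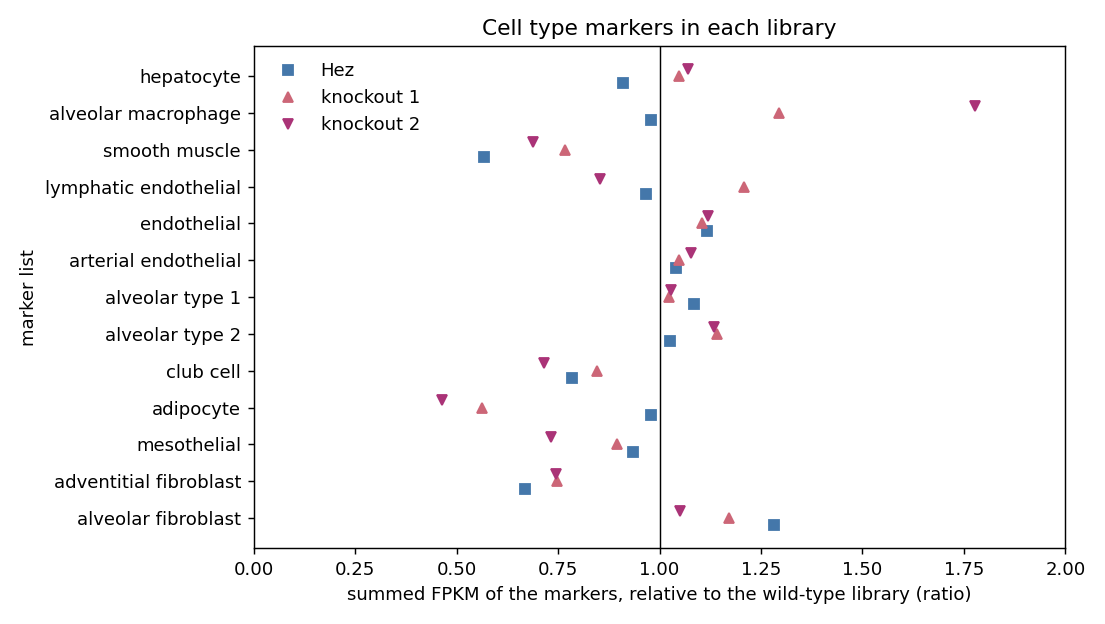
Summed FPKM of each marker list in the Hez, knockout 1 and knockout 2 libraries as a ratio to the wild-type library (line at 1), 1 point per library and no error bars. The adipocyte sum, mostly Cfd, is lower in both knockouts (53.2 and 43.9 FPKM) than in wild type (94.6) and Hez (92.6). The alveolar macrophage sum, mostly Chil3, is higher in both.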

How the data were processed

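RNA was sequenced from 4 lung libraries. The authors deposited 1 table with raw counts of reads and FPKM values for every gene. All 66024 FPKM values above 0 equal the count divided by gene length and library total, within a relative tolerance of 1e-06. Per the submitters' processing notes the build is GRCm39; the aligner, counter and use of strand were not given in the sources used here. Groups follow the genotype labels. Library pairs differed beyond counting noise (chi-square per gene of 8.23 to 12.1). The 2 knockout libraries differed by 10.28, more than wild type from Hez (8.33), wild type from knockout 1 (8.68) or Hez from knockout 1 (8.23). Knockout 2 differed more from wild type and from Hez (11.14) than from knockout 1. The edgeR 4.0.16 quasi-likelihood test (R 4.3.3, TMM scaling, filterByExpr, two-sided, Benjamini-Hochberg over all genes, threshold 0.05) was fitted with 3 groups (1 residual degree of freedom), and with wild type and Hez joined (2). It was tested on simulated data. Alternatives used DESeq2 1.42.0, limma 3.58.1, other scalings and filters, and left-out libraries.

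Members, gene lists and tests were chosen with earlier results of these data known. Named genes are the members, Dnah9, per pathway list the 3 most abundant and the 2 of smallest p, and the 5 genes nearest in pattern to Lrat and to Cyp26b1; 2 genes that this rule selects are not reported here. The markers Sftpc, Msln, Upk3b, Krt19, Plin2, Cfd, Cidec, Pck1, Inmt, Chil3, Marco and Mrc1 and the overlapping Ccdc33 and Top2b were named after their values were seen. Protein sequences were not analysed here. Lists of alveolar type 1, arterial, lymphatic and smooth muscle markers had medians against wild type of 0.07, 0.03, 0.08 and -0.44, and alveolar type 2 markers 0.24.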

Additional observations from a re-analysis of the deposited data

How the results depend on the processing

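Across all genes, the count of 8 called against wild type was 4 without a filter or with a mean of at least 10 CPM, 14 with DESeq2, 1 with limma on log2 FPKM plus 0.5, 0.1 or 1, and 0 with limma and no filter. The count of 1 against Hez was 6 with DESeq2 and 0 with limma, except 1 with a pseudocount of 1. The count of 2 against both joined was 1 with a mean of at least 10 CPM, 34 with DESeq2, 1 with limma at pseudocounts of 0.5 and 0.1, and 0 at 1 or without a filter. Leaving out 1 library there gave 1 to 107 calls (107 without knockout 1, 24 without knockout 2, 8 without Hez, 1 without wild type). Without a knockout library the fits assume that the lone one varies like the other group. The 1 member called against wild type was 1 under all edgeR and DESeq2 settings and 0 under all 4 limma settings; against both joined 0 became 0 to 1 on leaving out a library. The cause was not tested. Members' log2 differences kept their sign in 184 of 187 recomputed values, and the other 3 were Rdh10 without knockout 1. Of the 187, 133 changed only scaling or unit on the same libraries, and 54 left out a knockout library. By size, 25 moved by more than the SD of the knockout pair, 20 on scaling or unit and 5 on leaving out a library. Stra6 against wild type went from -2.52 to -0.18 with log2(FPKM + 1). Against wild type or Hez alone, leaving out a knockout library leaves no residual degree of freedom, so no test was made. No paired analysis was possible because the labels give no replicate numbers shared by groups. Depth limits Stra6 and Rarb most.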
